A study of Homo sapiens with 15 samples.

Results

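Mitosis is run by a set of genes whose transcripts are made mainly in the G2 phase and at mitotic entry. The 40 genes described here are named mitotic kinases, cyclins, checkpoint proteins, kinesins, kinetochore and centromere proteins and spindle proteins, a list chosen by name. All 40 were present among the 55773 rows of the table of normalized read counts, and all 40 passed the filter on low values in both experiments. The RNA-seq libraries came from HEK293, an established human embryonic kidney line, with 3 libraries in each of 5 groups. For overexpression, the derivative Flp-In T-REx 293, which carries a site for doxycycline-inducible transgenes, expressed ZC3H7A or ZC3H7B with a Flag/HA tag, or the tag alone as the control. All 3 of these groups received doxycycline, at 1 µg/mL for 24 h per the protocol, and their replicates are described as independent. Their lysates were made by hypotonic swelling as for polysomes, and the TruSeq RNA v2 kit, which does not mark strand, was used on the poly(A) fraction. Each construct was present in 1 group only, so its effect cannot be told apart from any other difference between the cells of the groups. The p-values of these comparisons measure the spread between libraries within groups. In the depletion experiment, Parental cells were wild type with a control shRNA. DD cells, the double depletion, are labelled as a knockout of ZC3H7A that also expresses an shRNA targeting ZC3H7B. Both were selected with puromycin at 5 µg/mL and released from it 2 passages before collection, and a company made their libraries with another protocol. No label says whether DD is 1 clone or whether each library of DD and Parental is its own culture. The p-values of that comparison therefore measure only the spread between these libraries, which may be technical.

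ZC3H7A and ZC3H7B are related CCCH zinc-finger proteins that bind RNA. Entry into mitosis depends on CDK1 bound to cyclin B, which the CDC25 phosphatases switch on. Aurora and Polo kinases then build the spindle, the spindle checkpoint holds the anaphase-promoting complex until every kinetochore is attached, and CDC20 then turns that complex on so that securin and cyclin B are destroyed and separase opens cohesin. Most of these genes are repressed outside G2 and mitosis by the DREAM complex and activated by MYBL2 and FOXM1, through promoter elements named the CHR (cell cycle genes homology region) and the CCAAT box. In bulk RNA from a growing culture, fewer cells in G2 or mitosis and less RNA per such cell cannot be told apart.

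The 9 overexpression libraries held 45.5 to 57.6 M reads each and the 6 depletion libraries 12.2 to 15.5 M, so counting error was larger in the latter. The tagged genes matched their labels. ZC3H7A had normalized counts of 3179.6, 3374 and 3223 in the control and 10546, 10131 and 12898 with its transgene, and ZC3H7B of 5951, 5818 and 6044 in the control and 28082, 26712 and 26632 with its own. Each gene also differed from the control in the other overexpression. ZC3H7A was lower with ZC3H7B, at 1935, 2049 and 2113, and ZC3H7B was higher with ZC3H7A, at 8252, 8288 and 7390. In DD, ZC3H7B was at 999.8, 1168 and 1083 against 5948, 6484 and 6958 in Parental. The knocked-out gene ZC3H7A was at 1639.9, 1561 and 1771 in DD against 1585, 1528 and 1684 in Parental, so gene-level reads do not show the knockout. The 6 marker genes of HEK293 summed to 6461 to 9454 normalized counts in every library, with NEFL and INA highest. Single markers differed between groups. NEFM was at 0, 4.93 and 0 in Parental. LHX1 had log2 fold changes of -1.11 with ZC3H7A and -0.93 with ZC3H7B, and INA of 1.16 and 1.45. Markers of keratin epithelium summed to at most 8.88, of endothelium to at most 23.2 and of fibroblasts to 188 to 320. The 5 leukocyte markers summed to 35.99 to 42.8 in the control, 59.96 to 87.6 with ZC3H7A, 23.5 to 28.6 with ZC3H7B, 29.6 to 43.6 in Parental and 73.4 to 103 in DD, and their part in the results was not tested. Of these markers, PTPRC and CD3E were at 0 in every Parental and DD library. Values were compared only within an experiment, because the library protocols differed.

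Overexpressed ZC3H7A was set against the tag control to ask which mitotic transcripts change with more of the protein. The 40 genes went both ways. Cyclin B1 (CCNB1), the Aurora and Polo kinases, CDC20, separase (ESPL1) and TPX2 were 1.42-fold to 1.80-fold higher than in the control, and the kinetochore and cytokinesis genes CENPE, HMMR, KIF14, CENPF, DLGAP5, ECT2, TTK, ANLN and NDC80 were 1.79-fold to 5.16-fold lower. In all, 20 rose, 16 fell and 4 were not called (limma, Benjamini-Hochberg adjusted p under 0.05 over 17669 tested genes). Over all tested genes 34.7% rose and 41.2% fell, so 36 of the 40 genes were called beside 75.9% of all genes. The 2 groups of libraries were without overlap in 35 of the 40, against 77.9% of all tested genes. The median log2 fold change was 0.12 over the 40 genes and -0.07 over all tested genes.

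ZC3H7B gave the same kind of split when it was set against the same control libraries. Here 20 genes rose, 12 fell and 8 were not called (limma), where 32% of all tested genes rose, 37.6% fell and 69.6% were called in either direction. Libraries did not overlap in 35 of the 40, against 77.1% of all tested genes, and the median log2 fold change was 0.11, against -0.06 over all tested genes. Both comparisons share the 3 control libraries and are given side by side. Of the 40 genes, 19 rose with both proteins, 12 fell with both and none rose with one and fell with the other. Joint counts, here and below, were not made over all tested genes. With shared controls, they cannot be read as particular to the 40. BUB1, MAD2L1 and KIF23 were called with neither. CCNA2 was called only as a rise with ZC3H7A, BUB3, NUSAP1, TOP2A and MKI67 only as falls with ZC3H7A, and BUB1B only as a rise with ZC3H7B. With the trend of each library with transcript base content removed, described below, 28 genes rose and 8 fell with ZC3H7B, where 34.3% of all genes in that fit rose and 38% fell. Scaling each library to its total moved the median of all genes from -0.07 to -0.18 with ZC3H7A and from -0.06 to -0.14 with ZC3H7B. Then 17 of the 40 genes rose and 18 fell with ZC3H7A, where 29.3% of all tested genes rose and 47.4% fell. With ZC3H7B 19 rose and 14 fell, where 26.8% of all tested genes rose and 43.4% fell.

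Between the overexpressions, more of the 40 genes were lower than higher with ZC3H7A. The lower genes numbered 15 and the higher genes 5 (limma), where 20.4% of all tested genes were lower, 23.9% higher and 44.3% either. Among the 12 genes that fell with both proteins, 7 were lower with ZC3H7A than with ZC3H7B and none was higher. The libraries did not overlap in 20 of the 40, against 49.2%. The median log2 difference, ZC3H7A less ZC3H7B, was -0.11 over the 40 genes and 0.01 over all tested genes. TTK (-0.57), DLGAP5 (-0.56), NDC80 (-0.52) and HMMR (-0.50) had the largest called differences of the 40. Leaving out ZC3H7B replicate 1 left 3 genes higher instead of 5, where 21.3% of all tested genes were higher.

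In DD against Parental cells, most changes went up. Of the 40 genes, 19 rose, 2 fell and 19 were not called (limma, over 18491 tested genes), where 14.7% of all tested genes rose, 14.8% fell and 29.5% were called in either direction. Libraries did not overlap in 21 of the 40, against 43% of all tested genes, and the median log2 fold change was 0.23, against 0.01. NDC80, ANLN, TTK, DLGAP5, KIF11, NUF2, HMMR and ECT2 rose in DD and had fallen with both overexpressed proteins. CCNB1, CCNB2, CDC25C, FOXM1, AURKA, TPX2 and BIRC5 rose in DD and had also risen with both proteins, and CDC25B and PTTG1 fell in DD. The share of all tested genes with either joint pattern was not counted. The DD count rested on few libraries, and the share over all tested genes moved with them. Without Parental replicate 3, 32 genes were called (28 rises), where 19.7% of all tested genes rose. Without Parental replicate 2, 12 were called (11 rises), where 10.6% of all rose. Without DD replicate 1, 11 were called (9 rises), where 8.58% of all rose. Rises numbered 12 without DD replicate 2 and 12 with DESeq2, where 10.3% and 11% of all rose. The 9 calls that held under every setting run were those of CDC25B, AURKA, TTK, NUF2, NDC80, KIF11, DLGAP5, NUSAP1 and ANLN.

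**Figure D1:**
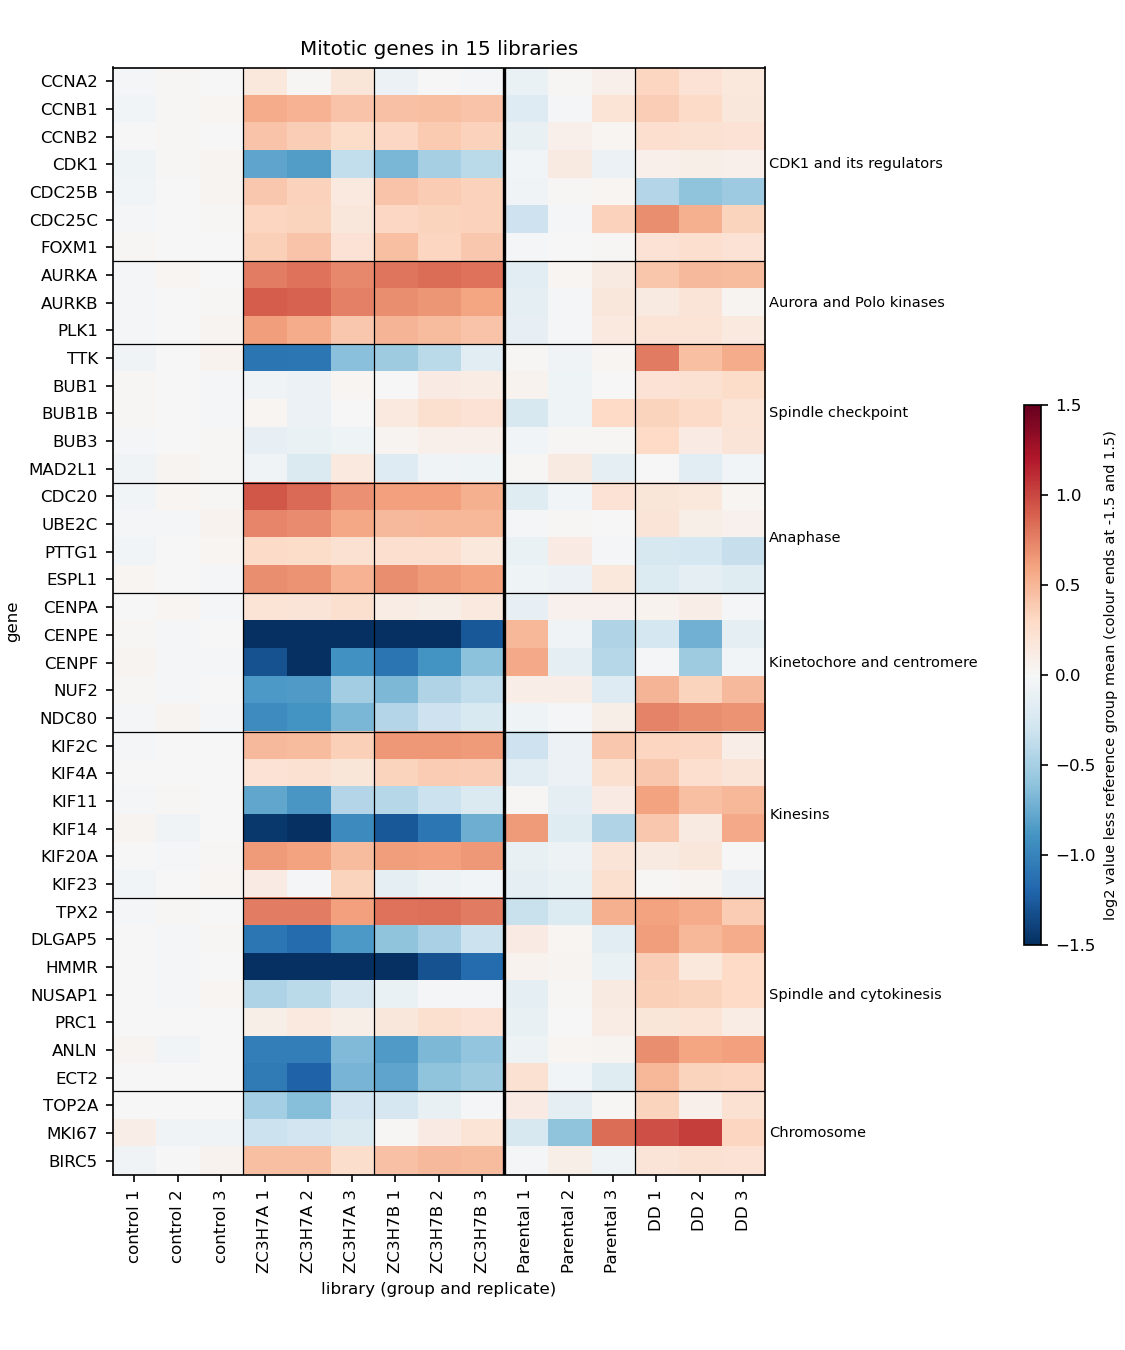
Each row is 1 of the 40 genes, grouped by role, and each column 1 of the 15 libraries. Colour gives the log2 normalized count less the mean of the 3 control libraries (first 9 columns) or of the 3 Parental libraries (last 6), with colours ending at -1.5 and 1.5. Red and blue rows stand side by side within the ZC3H7A and ZC3H7B columns, CENPE and HMMR are the darkest blue, and most DD columns are pale red. Parental replicate 3 differs from the other Parental libraries in MKI67, TPX2 and KIF2C.

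Genes that rose and genes that fell in the overexpressions differed in the base content of their transcripts. The share of A and T in the annotated transcript with the longest coding sequence ranged from 40.7% to 64.7% over the 40 genes, with a median of 56.3%, against 50.3% over the tested genes with a value. The first 30 codons of 7 coding sequences are shown so that this content can be read in letters. They run 5′ to 3′ from the start codon, on the coding strand of the GENCODE 29 transcript, and capitals mark an A or T as the last base of a codon. The first 4 genes rose with both proteins and the last 3 fell with both.
PLK1: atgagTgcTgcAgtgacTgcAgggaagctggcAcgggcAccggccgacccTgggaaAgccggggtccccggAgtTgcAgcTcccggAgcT
AURKB: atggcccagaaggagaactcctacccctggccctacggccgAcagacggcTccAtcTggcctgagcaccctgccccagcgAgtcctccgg
CDC20: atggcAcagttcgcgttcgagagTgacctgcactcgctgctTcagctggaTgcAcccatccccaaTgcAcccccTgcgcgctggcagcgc
AURKA: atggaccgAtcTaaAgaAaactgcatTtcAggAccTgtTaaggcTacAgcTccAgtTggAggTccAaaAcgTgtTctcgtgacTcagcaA
TTK: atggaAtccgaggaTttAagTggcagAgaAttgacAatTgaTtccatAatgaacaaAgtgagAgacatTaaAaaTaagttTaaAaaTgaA
DLGAP5: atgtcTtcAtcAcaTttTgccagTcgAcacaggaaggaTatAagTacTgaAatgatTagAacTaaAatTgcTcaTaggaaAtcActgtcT
CENPE: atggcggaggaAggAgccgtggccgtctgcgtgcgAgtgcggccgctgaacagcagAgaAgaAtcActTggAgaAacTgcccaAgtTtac
Over the whole coding sequence, 26.7% of codons ended in A or T in PLK1, 27.5% in AURKB, 37.9% in CDC20 and 61.3% in AURKA, against 70.01% in TTK, 72.8% in DLGAP5 and 68.3% in CENPE. In the 30 codons shown the number ending in A or T was 15 in PLK1, 5 in AURKB, 8 in CDC20, 22 in AURKA, 19 in TTK, 22 in DLGAP5 and 13 in CENPE. PLK1 and CENPE are therefore less unlike at their starts than over their whole length, and AURKA is a gene rich in such codons that rose.

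With ZC3H7A, all 9 members with under 50% A+T rose, where 58.8% of all tested genes in that class did. Of the 11 members with 60% A+T or more, 10 fell and none rose, where 86.2% of all tested genes in that class fell. The 10 members from 50% to 55% held 9 rises and 1 fall, where 34.8% of all tested genes in that class rose and 36.9% fell. The 10 from 55% to 60% held 2 rises and 5 falls, where 13.4% rose and 62.6% fell. ZC3H7B gave 9 rises of 9 in the lowest class, where 52.8% of all tested genes rose, and 9 falls of 11 in the highest, where 84.5% fell. The falls of the A+T-rich members are therefore near the share that all genes of that class show. These classes were chosen after the values had been seen. Across the 40 genes, the log2 fold change had a Pearson correlation with A+T share of -0.79 with ZC3H7A and -0.77 with ZC3H7B, and across all 15217 tested genes with a value it was -0.45 and -0.43. The points of each correlation are genes measured in the same libraries, so they are not independent.

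In DD the same classes were not split in this way. Of the 11 members with 60% A+T or more, 6 rose and none fell in DD, where 16.6% of all tested genes in that class rose and 10.5% fell. Of the 9 members with under 50%, 2 rose and 1 fell, where 17.5% of all tested genes in that class rose and 16.9% fell. The correlation with A+T share was 0.32 across the 40 genes and -0.02 across all tested genes. The same separation was measured in each library as the mean of the A+T-rich members less that of the A+T-poor members, relative to the reference group on the log2 scale. It was -1.73, -1.81 and -1.16 with ZC3H7A and -1.38, -1.18 and -0.98 with ZC3H7B, and within 0.0111 of 0 in the control. In Parental it was 0.27, -0.00196 and -0.26 and in DD 0.27, 0.07 and 0.30, so the Parental libraries spanned most of the range of both groups. All tested genes in the same classes, compared by medians, were also separated in the overexpressions. Their difference was -1.14, -1.21 and -0.71 with ZC3H7A and -1.02, -0.89 and -0.76 with ZC3H7B. ZC3H7A replicate 3 lay nearest the control in 34 of the 36 called genes, and ZC3H7B replicate 3 in 21 of 32. Parental replicate 3 lay nearest DD in 12 of 21.

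**Figure D2:**
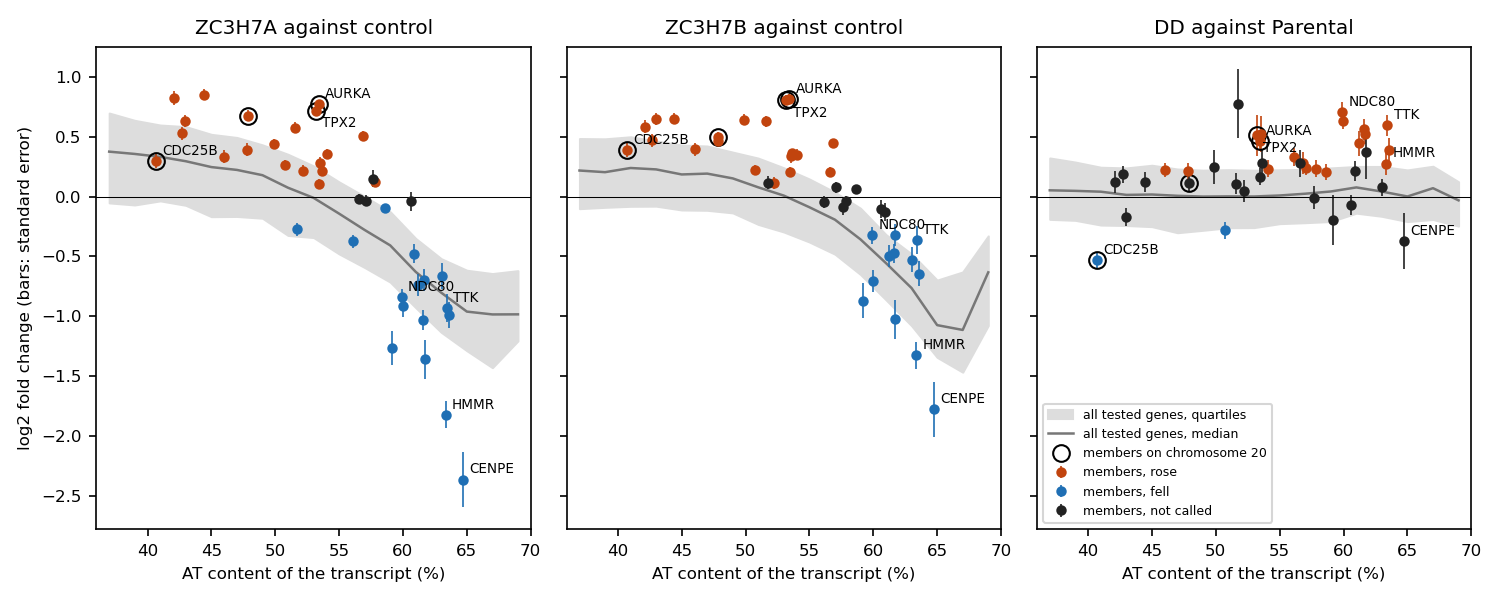
The A+T share of each gene's transcript in percent is on the x axis and its log2 fold change on the y axis, in 3 comparisons, with bars for the limma standard error. Points are the 40 genes, coloured by call, rings mark the 4 on chromosome 20, and the grey band and line give the quartiles and median of all tested genes. The points descend with the grey line for ZC3H7A and ZC3H7B, with CENPE and HMMR far below it and AURKA and TPX2 above it, and the line is flat for DD.

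**Figure D3:**
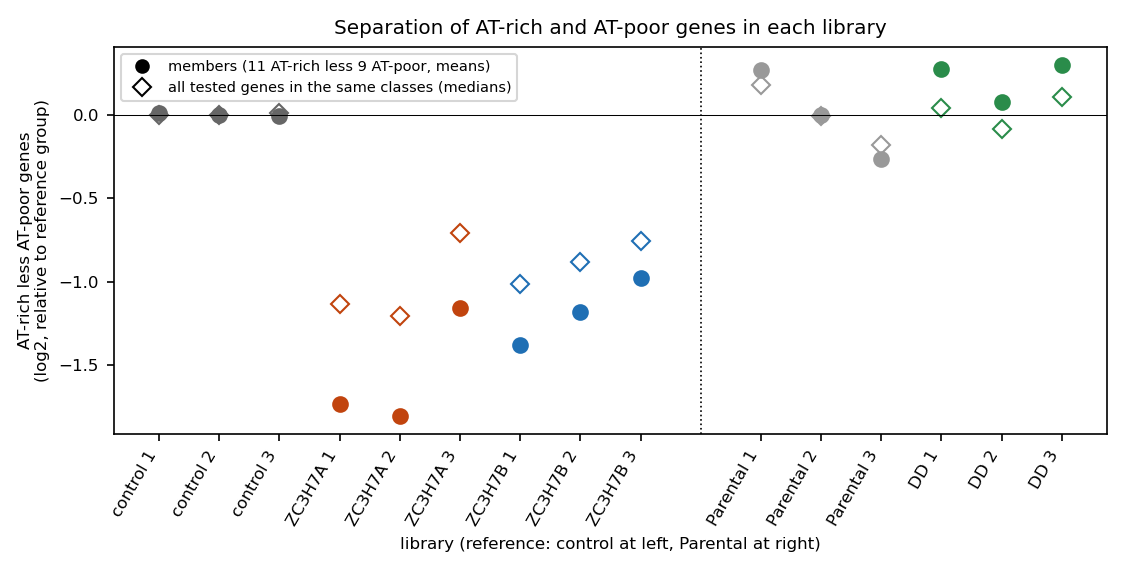
For each of the 15 libraries, filled circles give the mean log2 value of the 11 A+T-rich members (60% or more) less that of the 9 A+T-poor members (under 50%), relative to the reference group. Open diamonds give the difference between the medians of all tested genes in the same classes, which is -1.21 to -0.71 in the overexpression libraries. All 6 overexpression libraries lie at -0.98 or below for the members, with replicate 3 of each group nearest 0, and Parental and DD libraries lie between -0.26 and 0.30.

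With the A+T trend of each library removed, 24 of the 40 genes rose and 14 fell with ZC3H7A, over 15217 tested genes of which 37.2% rose and 38.6% fell. Several falls that were shared by both proteins then differed. With ZC3H7B, TTK was at a log2 fold change of 0.06, KIF11 at 0.05, NDC80 at -0.01 and CDK1 at -0.11, and none of these 4 passed the test. With ZC3H7A the same genes still fell, at -0.41, -0.24, -0.45 and -0.16. CENPE (-1.79 and -1.32), HMMR (-1.30 and -0.91), KIF14 (-0.90 and -0.65) and CENPF (-0.90 and -0.58) fell with ZC3H7A and ZC3H7B after removal. Among the rises, CDC25B with ZC3H7A was at -0.04 after removal and did not pass. Other genes passed only after removal. With ZC3H7A these were BUB1, BUB1B, MAD2L1 and KIF23, which rose, and with ZC3H7B they were CCNA2, BUB1, BUB3, MAD2L1, KIF23, NUSAP1, TOP2A and MKI67, which rose by 0.15 to 0.34. BUB3, which had fallen with ZC3H7A, rose by 0.25 after removal.

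A second measurement that moved with the results was position. AURKA, TPX2 and UBE2C lie on chromosome 20 together with CDC25B. The 418 tested genes of that chromosome with an A+T value had a median log2 fold change of 0.54 with ZC3H7A and 0.44 with ZC3H7B, against -0.03 and -0.02 over all such genes. In DD the 415 tested genes there had a median of 0.04, against 0.03. With the A+T trend removed, the 40 tested genes nearest to AURKA on either side had a median of 0.45 with each protein, those nearest to TPX2 of 0.57 with ZC3H7A and 0.44 with ZC3H7B, and those nearest to UBE2C of 0.30 and 0.38. These 3 genes had the highest neighbour medians of the 40 in both comparisons. For the other 37 the neighbour median was -0.29 to 0.19 with ZC3H7A and -0.40 to 0.17 with ZC3H7B. On the same scale AURKA itself was at 0.91 and 0.93, TPX2 at 0.85 and 0.92 and UBE2C at 0.61 and 0.44. The part of the neighbourhood in these rises was not tested.

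CDK1 and its regulators were the first role group, and here and below the ± of a log2 fold change is its limma standard error. The counts of each role group stand beside 34.7% rises and 41.2% falls over all tested genes with ZC3H7A. These shares were 32% and 37.6% with ZC3H7B and 14.7% and 14.8% in DD. With ZC3H7A, 6 of its 7 genes rose and CDK1 fell, and with ZC3H7B 5 rose, CDK1 fell and CCNA2 was not called. CCNB1, the cyclin that partners CDK1 at mitotic entry, had normalized counts of 6121, 6333 and 6382 in control libraries, 9204, 9045 and 8468 under ZC3H7A and 8544, 8607 and 8469.9 under ZC3H7B. All 6 overexpression libraries lay above all controls (ZC3H7A: log2 fold change 0.50 ± 0.0398 by limma, adjusted p = 2.91e-07; ZC3H7B: log2 fold change 0.44 ± 0.0398 by limma, adjusted p = 1.25e-06). CDK1 itself moved against its cyclin. Its counts were 5956, 6309.5 and 6385 in control libraries, 3579.7, 3476 and 4826 under ZC3H7A and 3878, 4412 and 4691 under ZC3H7B (ZC3H7A: log2 fold change -0.67 ± 0.106 by limma, adjusted p = 0.000105; ZC3H7B: log2 fold change -0.53 ± 0.106 by limma, adjusted p = 0.000798). No overexpression library reached the controls. The 40 tested genes nearest to CDK1 had medians of -0.65 with ZC3H7A and -0.34 with ZC3H7B. With the A+T trend removed, CDK1 was at -0.16 and -0.11, beside neighbour medians of -0.27 and -0.10. The part of base content and neighbourhood in this fall was not tested. CCNB2 rose by a log2 fold change of 0.36 and 0.35, CDC25C by 0.28 and 0.34 and FOXM1, the activator of G2/M genes, by 0.33 and 0.39 with ZC3H7A and ZC3H7B. Exons of CDC25C overlap those of FAM53C on the other strand by 276 bases in GENCODE 29, and a kit that does not mark strand cannot tell their reads apart there.

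CCNA2, the cyclin of S phase and G2, was the group's called difference between the proteins. Its counts were 3149, 3231 and 3165 in control libraries, 3563, 3231 and 3621 under ZC3H7A and 2982, 3179 and 3124 under ZC3H7B. ZC3H7A libraries all lay above ZC3H7B libraries (log2 fold change 0.16 ± 0.0487 by limma, adjusted p = 0.0161), a call lost without replicate 1 of either protein. ZC3H7A and control libraries overlapped, and the rise against the control (log2 fold change 0.12 ± 0.0487 by limma, adjusted p = 0.0348) was lost when any 1 control library or ZC3H7A replicate 1 or 3 was left out, and with library-total scaling. In DD, CCNA2 was at 4162, 3857 and 3719.9 against 3115, 3365 and 3505 in Parental, with no overlap (log2 fold change 0.23 ± 0.0720 by limma, adjusted p = 0.0293), and the call was lost in 4 of the 6 fits without 1 library. CDC25B, a phosphatase that activates CDK1, went the other way in DD. Its counts were 5120.1, 5359 and 5416 in Parental and 3891, 3492 and 3617 in DD (log2 fold change -0.53 ± 0.0662 by limma, adjusted p = 0.000121), against 4089, 4185 and 4339 in control libraries, 5562, 5351 and 4634 under ZC3H7A and 5673, 5485 and 5346 under ZC3H7B (log2 fold change 0.30 ± 0.0605 by limma, adjusted p = 0.000690 for ZC3H7A and log2 fold change 0.39 ± 0.0605 by limma, adjusted p = 0.000110 for ZC3H7B). Groups did not overlap in any of these 3 comparisons, and ZC3H7A replicate 3 lay nearest the controls. CCNB1 in DD was 8232, 7792 and 7191 against 5591, 6301 and 7333 in Parental, where Parental replicate 3 overlapped DD (log2 fold change 0.28 ± 0.0935 by limma, adjusted p = 0.0419). That call was lost in 5 of the 6 fits without 1 library and with edgeR and DESeq2.

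The Aurora and Polo kinases rose with both proteins, all 3 of 3. AURKA, which works at the spindle poles, had counts of 2214, 2298 and 2253 in control libraries, 3841, 3969 and 3729.6 under ZC3H7A and 3931, 4019 and 3955 under ZC3H7B (ZC3H7A: log2 fold change 0.77 ± 0.0389 by limma, adjusted p = 8.79e-09; ZC3H7B: log2 fold change 0.82 ± 0.0389 by limma, adjusted p = 1.32e-08). It also rose in DD, from 2859.8, 3254 and 3503 to 4249, 4487 and 4451 (log2 fold change 0.46 ± 0.0789 by limma, adjusted p = 0.00111), so it was higher in every perturbed library of both experiments than in any library of its reference group. AURKB, the kinase of the chromosomal passenger complex, was 3375, 3404 and 3469 in control libraries, 6399, 6301 and 5783 under ZC3H7A and 5537, 5403 and 5139 under ZC3H7B. Its 3 groups stood apart in order, with ZC3H7A highest (ZC3H7A against ZC3H7B: log2 fold change 0.20 ± 0.0465 by limma, adjusted p = 0.00413; against the control: log2 fold change 0.85 ± 0.0465 by limma, adjusted p = 1.56e-08). In DD it was at a log2 fold change of 0.12 and overlapped Parental (limma adjusted p = 0.31). PLK1, which acts from mitotic entry to cytokinesis, rose by 0.53 with ZC3H7A and 0.47 with ZC3H7B, and was at 0.18 in DD without passing the test (limma adjusted p = 0.081). Its lowest DD library, at 8324, lay just above its highest Parental library, at 8322. With the A+T trend removed, PLK1 was again at 0.18 in DD and passed (limma adjusted p = 0.0448).

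**Figure D4:**
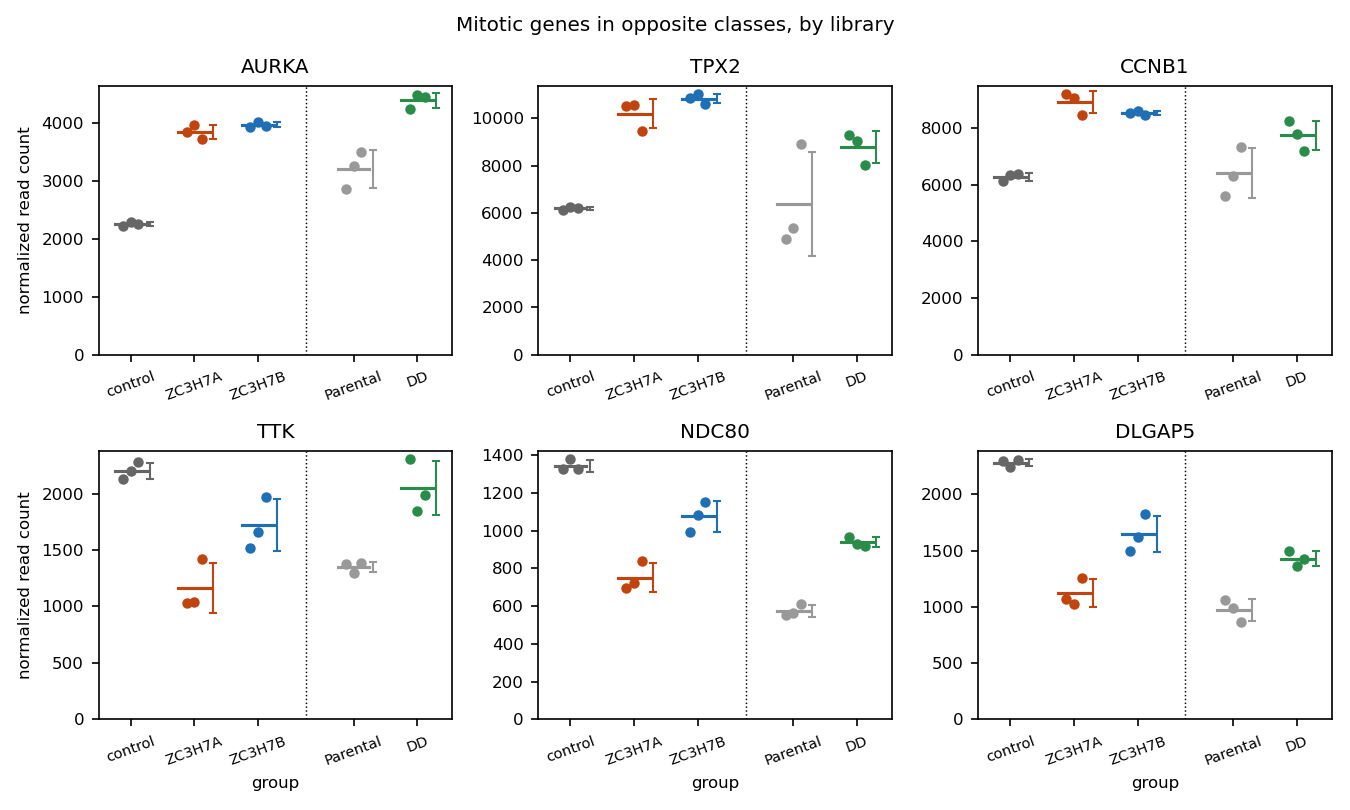
Normalized read counts of 6 genes in each library (points), with the group mean (line) and SD (bar), for the 3 overexpression groups and, right of the dotted line, Parental and DD. AURKA, TPX2 and CCNB1 lie higher in every ZC3H7A and ZC3H7B library than in the controls. TTK, NDC80 and DLGAP5 lie lower with both proteins, lowest with ZC3H7A, and higher in DD than in Parental, and for TPX2 and CCNB1 Parental replicate 3 lies within DD.

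Of the 5 spindle checkpoint genes, none rose and 2 fell with ZC3H7A, and 1 rose and 1 fell with ZC3H7B. Between the proteins 3 were lower with ZC3H7A, and in DD 3 rose. These counts depended on base content: with the A+T trend removed, BUB1, BUB1B, BUB3 and MAD2L1 rose with both proteins and TTK fell with ZC3H7A. TTK, the kinase that starts checkpoint signalling at kinetochores, had counts of 2129, 2197 and 2277 in control libraries, 1029, 1041 and 1422 under ZC3H7A and 1521, 1662 and 1972 under ZC3H7B. The 3 groups did not overlap, and TTK was lowest with ZC3H7A (log2 fold change -0.93 ± 0.116 by limma, adjusted p = 1.32e-05; against ZC3H7B: log2 fold change -0.57 ± 0.116 by limma, adjusted p = 0.00184). The smaller fall with ZC3H7B (log2 fold change -0.37 ± 0.116 by limma, adjusted p = 0.0143) was lost without ZC3H7B replicate 1, and its sign turned with the A+T trend removed. In DD, TTK rose from 1372, 1297 and 1383 to 2310.2, 1846 and 1991 (log2 fold change 0.59 ± 0.0880 by limma, adjusted p = 0.000417). BUB1B, or BUBR1, an inhibitor of the anaphase-promoting complex, was 2974, 2956 and 2898 in control libraries, 3010.2, 2776 and 2923 under ZC3H7A and 3263, 3487 and 3414 under ZC3H7B. ZC3H7B libraries lay above all others (log2 fold change 0.20 ± 0.0436 by limma, adjusted p = 0.00124; ZC3H7A against ZC3H7B: log2 fold change -0.22 ± 0.0436 by limma, adjusted p = 0.00134), while ZC3H7A and control libraries overlapped. BUB3, which holds BUB1 and BUBR1 at kinetochores, was at -0.10 with ZC3H7A, a fall that was lost under edgeR, DESeq2 and other settings and turned to 0.25 with the A+T trend removed. BUB1 and BUB3 rose in DD, by 0.24 and 0.21. MAD2L1, or MAD2, which binds and blocks CDC20, was at log2 fold changes of -0.04 with ZC3H7A, -0.11 with ZC3H7B and -0.07 in DD and did not pass. With the A+T trend removed it rose by 0.38 with ZC3H7A and 0.23 with ZC3H7B (limma adjusted p = 1.93e-06 and 0.000263), and it was then higher with ZC3H7A by 0.14 (limma adjusted p = 0.0124). On that scale BUB1 rose by 0.25 and 0.31, BUB1B by 0.24 and 0.42 and BUB3 by 0.25 and 0.34 with ZC3H7A and ZC3H7B.

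All genes of the anaphase group rose in the overexpressions, 4 of 4 with each protein. CDC20, UBE2C and ESPL1 have under 50% A+T, a class in which 58.8% of all tested genes rose with ZC3H7A and 52.8% with ZC3H7B. CDC20, the activator of the anaphase-promoting complex, was 4174, 4389 and 4376 in control libraries, 8219, 7791 and 6939 under ZC3H7A and 6583, 6599 and 6231 under ZC3H7B. Its groups did not overlap, with ZC3H7A highest (ZC3H7A: log2 fold change 0.82 ± 0.0568 by limma, adjusted p = 9.40e-08; ZC3H7A against ZC3H7B: log2 fold change 0.24 ± 0.0568 by limma, adjusted p = 0.00483). ESPL1, or separase, the protease that opens cohesin, was 4605, 4508 and 4394 in control libraries, 7306, 7208 and 6477 under ZC3H7A and 7279, 7033 and 6815 under ZC3H7B, and no difference between the proteins passed the test (ZC3H7A: log2 fold change 0.63 ± 0.0494 by limma, adjusted p = 2.58e-07; ZC3H7B: log2 fold change 0.65 ± 0.0494 by limma, adjusted p = 3.55e-07; between them: log2 fold change -0.01 ± 0.0494 by limma, adjusted p = 0.879). UBE2C, the ubiquitin-conjugating enzyme of the same complex, rose by 0.68 and 0.50. PTTG1, or securin, the inhibitor of separase, rose with both proteins and was 1 of the 2 falls in DD. Its counts were 2251, 2326 and 2354 in control libraries, 2824, 2796 and 2706 under ZC3H7A and 2754, 2758 and 2580.0 under ZC3H7B (log2 fold changes 0.26 and 0.22), then 3528, 4099.7 and 3732 in Parental and 3196, 3158 and 2966 in DD (log2 fold change -0.28 ± 0.0731 by limma, adjusted p = 0.0122). All DD libraries lay below all Parental libraries, and the call was lost without Parental replicate 2 or without DD replicate 3. ESPL1 in DD was at -0.17 and did not pass, beside a median of -0.47 over the 40 tested genes nearest to it. With the A+T trend removed, ESPL1 was at -0.18 and passed (limma adjusted p = 0.0472), beside a neighbour median of -0.48. Near-identical copies took few reads: PTTG3P summed to 1.81% of PTTG1, CDC20P1 to 1.56% of CDC20 and UBE2CP4 to 0.682% of UBE2C, and shared reads between them cannot be told apart.

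Kinetochore and centromere genes fell in 4 of 5 cases with each protein. The 4 that fell have 59.2% to 64.7% A+T. Of all tested genes from 55% to 60%, 62.6% fell with ZC3H7A and 56.2% with ZC3H7B. From 60% up, 86.2% and 84.5% fell. CENPA, the centromere's histone variant, was the exception. It rose by 0.22 with ZC3H7A and 0.11 with ZC3H7B, and both calls were lost with library-total scaling, the latter also without any 1 control or ZC3H7B library. CENPE, the kinesin that carries chromosomes to the spindle equator, had the largest fall of the 40 with each protein. Its counts were 2707, 2650.2 and 2685 in control libraries, 475, 388 and 759 under ZC3H7A and 598, 713 and 1112 under ZC3H7B, so that every overexpression library was far below the controls (ZC3H7A: log2 fold change -2.37 ± 0.230 by limma, adjusted p = 1.65e-06; ZC3H7B: log2 fold change -1.78 ± 0.230 by limma, adjusted p = 2.40e-05). Replicate 3 was the highest of each overexpression group. CENPE in DD was 146, 107 and 160.1 against 249, 170.1 and 129 in Parental, with overlap (log2 fold change -0.37 ± 0.234 by limma, adjusted p = 0.260). NDC80 and NUF2, partners in the complex that grips microtubules, moved together. NDC80 had counts of 1326, 1381 and 1327 in control libraries, 697, 720.1 and 837 under ZC3H7A and 991, 1085 and 1151 under ZC3H7B, and the 3 groups did not overlap (ZC3H7A: log2 fold change -0.84 ± 0.0727 by limma, adjusted p = 5.95e-07; ZC3H7A against ZC3H7B: log2 fold change -0.52 ± 0.0727 by limma, adjusted p = 0.000116). NUF2 was 1467, 1416 and 1448 in control libraries, 793, 802 and 1009 under ZC3H7A and 907, 1055 and 1114 under ZC3H7B (ZC3H7A: log2 fold change -0.74 ± 0.0930 by limma, adjusted p = 1.38e-05; ZC3H7B: log2 fold change -0.50 ± 0.0930 by limma, adjusted p = 0.000444). Both were lower in all 6 overexpression libraries than in the controls.

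NDC80 had the largest called rise of the 40 genes in DD. Its counts were 551, 565 and 612 in Parental and 968, 931 and 918 in DD, well apart (log2 fold change 0.71 ± 0.0852 by limma, adjusted p = 9.70e-05). NUF2 rose from 579.5, 579 and 473 to 773, 685 and 756 (log2 fold change 0.44 ± 0.106 by limma, adjusted p = 0.00793), with no overlap. CENPF, a large kinetochore protein, fell by 1.27 and 0.87 on the log2 scale with ZC3H7A and ZC3H7B and was at -0.20 in DD without passing (limma adjusted p = 0.52). The wide spread of CENPE and CENPF within Parental, with replicate 1 highest for both, limits what DD could show for them.

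The 6 kinesins were split 3 up and 2 down with each protein, and KIF23 was not called. KIF20A, which brings the passenger complex to the spindle midzone, was 2493, 2439 and 2524 in control libraries, 3882, 3786 and 3459 under ZC3H7A and 3839, 3795 and 3909 under ZC3H7B, above the controls in 6 of 6 libraries (ZC3H7A: log2 fold change 0.58 ± 0.0465 by limma, adjusted p = 3.46e-07; ZC3H7B: log2 fold change 0.63 ± 0.0465 by limma, adjusted p = 2.59e-07). KIF2C, a microtubule depolymerase, was 2435, 2469 and 2475 in control libraries, 3456, 3421 and 3156 under ZC3H7A and 3854, 3849 and 3826 under ZC3H7B. It was higher with ZC3H7B than with ZC3H7A (ZC3H7A less ZC3H7B: log2 fold change -0.20 ± 0.0422 by limma, adjusted p = 0.00214) and higher with each than in the control (log2 fold change 0.64 ± 0.0422 by limma, adjusted p = 1.06e-07 for ZC3H7B). KIF4A, a kinesin of chromosome arms, rose by 0.21 and 0.36, and its copy KIF4B summed to 2.87% of its value. KIF11, or Eg5, which pushes the spindle poles apart, went down with both proteins and up in DD. Its counts were 5314, 5446 and 5432 in control libraries, 3140.4, 2948 and 3971 under ZC3H7A and 4017, 4311 and 4642 under ZC3H7B (ZC3H7A: log2 fold change -0.70 ± 0.0901 by limma, adjusted p = 1.76e-05; ZC3H7B: log2 fold change -0.32 ± 0.0901 by limma, adjusted p = 0.00684), then 2602, 2317 and 2799 in Parental and 3912, 3511 and 3629 in DD (log2 fold change 0.52 ± 0.0809 by limma, adjusted p = 0.000579). No groups overlapped in these comparisons, and the fall with ZC3H7B was lost with the A+T trend removed. KIF14, a kinesin of cytokinesis, fell by 1.36 and 1.03 on the log2 scale. KIF23, of the centralspindlin complex, was higher with ZC3H7A than with ZC3H7B by 0.24 (limma adjusted p = 0.016), a call lost without ZC3H7B replicate 1.

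Of the 7 spindle and cytokinesis genes, TPX2 and PRC1 rose and 5 fell with ZC3H7A, and 4 of those 5 fell with ZC3H7B. TPX2, which activates AURKA on the spindle, was 6125, 6241 and 6201 in control libraries, 10502, 10574 and 9479 under ZC3H7A and 10854, 11013 and 10621 under ZC3H7B, so all 6 overexpression libraries stood well above the controls (ZC3H7A: log2 fold change 0.72 ± 0.0443 by limma, adjusted p = 3.92e-08; ZC3H7B: log2 fold change 0.81 ± 0.0443 by limma, adjusted p = 2.89e-08). In DD it was 9313, 9024 and 8013 against 4878, 5342 and 8919 in Parental. Parental replicate 3 lay within DD (log2 fold change 0.51 ± 0.172 by limma, adjusted p = 0.0425), and the call was lost with TMM scaling, edgeR and DESeq2 and in 5 of the 6 fits without 1 library. DLGAP5, or HURP, which stabilises spindle microtubules, showed the other pattern. It had counts of 2293, 2245 and 2308 in control libraries, 1074, 1024 and 1259.6 under ZC3H7A and 1497, 1622 and 1821 under ZC3H7B, lowest with ZC3H7A and with no overlap (ZC3H7A: log2 fold change -1.03 ± 0.0804 by limma, adjusted p = 2.55e-07; ZC3H7A against ZC3H7B: log2 fold change -0.56 ± 0.0804 by limma, adjusted p = 0.000144). It rose in DD from 1057, 991 and 865 to 1496, 1367 and 1422 (log2 fold change 0.56 ± 0.0892 by limma, adjusted p = 0.000684). ANLN, the scaffold of the contractile ring, was 3265, 3087 and 3202 in control libraries, 1546, 1553 and 2009 under ZC3H7A and 1768, 1995 and 2112 under ZC3H7B (ZC3H7A: log2 fold change -0.91 ± 0.0930 by limma, adjusted p = 2.40e-06; ZC3H7B: log2 fold change -0.70 ± 0.0930 by limma, adjusted p = 2.83e-05). In DD it rose from 1449.9, 1558 and 1573 to 2471, 2291 and 2347 (log2 fold change 0.63 ± 0.0708 by limma, adjusted p = 5.28e-05), and Parental and DD libraries did not overlap.

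HMMR, a spindle assembly protein, fell by 1.83 and 1.33 on the log2 scale with ZC3H7A and ZC3H7B. ECT2, which activates the GTPase RhoA for cytokinesis, fell by 0.99 and 0.65. Both rose in DD, by 0.27 and 0.39, and both DD calls were lost without Parental replicate 2 or DD replicate 1. NUSAP1, which bundles spindle microtubules, fell by 0.37 with ZC3H7A, was at -0.05 with ZC3H7B and differed between the proteins by -0.33 (limma adjusted p = 0.000368), and it rose by 0.33 in DD. PRC1, which crosslinks microtubules of the midzone, rose by 0.11 and 0.21, the former lost with library-total scaling. Overlaps with exons of a gene on the other strand were annotated for ANLN (78 bases of KIAA0895), KIF20A (68 of CDC23), CCNA2 (140 of EXOSC9), PRC1 (307 of PRC1-AS1) and PLK1 (42 of ERN2).

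Among the chromosome group, BIRC5, or survivin, a subunit of the passenger complex with AURKB, rose in all 3 comparisons with a reference. Its counts were 1523, 1588 and 1641 in control libraries, 2167, 2172 and 1901 under ZC3H7A and 2147, 2211 and 2208 under ZC3H7B (ZC3H7A: log2 fold change 0.39 ± 0.0556 by limma, adjusted p = 4.03e-05; ZC3H7B: log2 fold change 0.47 ± 0.0556 by limma, adjusted p = 1.23e-05), and 6115, 6632 and 5976 in Parental and 7113, 7323 and 7265 in DD (log2 fold change 0.21 ± 0.0639 by limma, adjusted p = 0.0250). Groups did not overlap in any of the 3, although the DD call was lost with DESeq2 and in 4 of the 6 fits without 1 library. MKI67, the Ki-67 protein that coats mitotic chromosomes and marks cycling cells, differed between the proteins. It had counts of 17401, 15664 and 15591 in control libraries, 12989, 13289 and 13938 under ZC3H7A and 16453, 17627 and 18673 under ZC3H7B. ZC3H7A libraries lay below all others (against the control: log2 fold change -0.27 ± 0.0553 by limma, adjusted p = 0.000671; against ZC3H7B: log2 fold change -0.39 ± 0.0553 by limma, adjusted p = 0.000127). The Parental values of MKI67 were 3823, 2983 and 8089 and the DD values 8830.0, 9278 and 5664. Parental replicate 3 lay within DD and DD replicate 3 between the Parental libraries, and the difference did not pass (log2 fold change 0.78 ± 0.290 by limma, adjusted p = 0.0635). TOP2A, which untangles sister chromatids, fell by 0.48 with ZC3H7A, was at -0.13 with ZC3H7B (limma adjusted p = 0.16) and at 0.21 in DD (limma adjusted p = 0.077). With the A+T trend removed, TOP2A was at -0.05 with ZC3H7A and did not pass, and it rose by 0.22 with ZC3H7B and 0.23 in DD. MKI67 on that scale fell by 0.19 with ZC3H7A and rose by 0.18 with ZC3H7B.

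Levels were compared between genes per kb of transcript. In the control, CDK1 was highest with a normalized count per kb of 3192, followed by NUSAP1 at 2919, CCNB1 at 2895 and PLK1 at 2891, whose SDs of 54.8 to 66.9 exceed the gaps among those 3. CENPE was lowest at 311 and CDC25C next at 377. With ZC3H7A the highest level per kb was that of AURKB, at 4913 (SD 264, n = 3), and the lowest that of CENPE, at 62.8. In the depletion experiment CENPE was again lowest, at 21.2 per kb in Parental and 16.0 in DD, and AURKB highest in Parental, at 4085. Levels were not compared between experiments.

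Promoter windows of 250 bases before to 50 after the start were found for 33 of the 40 genes in the RefSeq table on GRCh38.p14. FOXM1, AURKA, TTK, BUB3, UBE2C, TPX2 and BIRC5 had none there. The letters of the CHR (TTTGAA, or TTCAAA on the other strand) were present in 24 of the 33, 72.7%, and in 18.2% of all 27305 genes with a window. A gene was counted if any of its windows held the letters, so genes with several windows had more chances. The letters of the CCAAT box (CCAAT, or ATTGG on the other strand) were present in 27 of the 33, 81.8%, and in 39.7% of all genes with a window. Genes that moved in opposite directions carried both. The CHR letters were in 8 of 14 genes that rose with both proteins and in 10 of 11 that fell with both, and the CCAAT letters in 13 of 14 and 7 of 11. The 60 bases before the start of 3 genes that rose with both proteins (PLK1, CCNB2 and ESPL1) and of 3 that fell with both (HMMR, ANLN and KIF11) are shown because they carry the same element in both classes. They are given 5′ to 3′ on the plus strand, on which all 6 genes lie, and capitals mark the searched letters.
PLK1: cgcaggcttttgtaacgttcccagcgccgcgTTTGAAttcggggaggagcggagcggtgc
CCNB2: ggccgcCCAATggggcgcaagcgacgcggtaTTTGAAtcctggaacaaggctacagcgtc
ESPL1: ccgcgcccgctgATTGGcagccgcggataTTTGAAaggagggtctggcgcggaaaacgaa
HMMR: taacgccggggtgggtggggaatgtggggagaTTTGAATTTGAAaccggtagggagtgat
ANLN: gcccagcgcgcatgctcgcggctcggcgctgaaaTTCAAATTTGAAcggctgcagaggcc
KIF11: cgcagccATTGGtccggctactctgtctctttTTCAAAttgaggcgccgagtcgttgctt
The stretches are chr16:23678829-23678888 for PLK1, chr15:59105086-59105145 for CCNB2, chr12:53268239-53268298 for ESPL1, chr5:163460572-163460631 for HMMR, chr7:36389802-36389861 for ANLN and chr10:92593070-92593129 for KIF11. A match of letters is a description of the sequence and not of binding.

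Beyond the 40 genes, a wider list of 100 mitotic genes, chosen by name, also held genes that rose and genes that fell. With ZC3H7A 39 rose, 48 fell and 13 were not called, where 34.7% of all tested genes rose and 41.2% fell, and the median log2 fold change was -0.08, against -0.07 over all tested genes. With ZC3H7B 46 rose and 36 fell, where 32% of all tested genes rose and 37.6% fell, and the median was 0.08. Cohesin and condensin genes, which hold and compact chromosomes, fell in 12 of 17 cases with ZC3H7A and 10 of 17 with ZC3H7B. The condensin subunit SMC4 fell by 1.79 and the cohesin regulator PDS5B by 1.28 on the log2 scale with ZC3H7A. In the outer kinetochore, SPC24, which joins the NDC80 complex, rose by 0.90 with each protein while ZWILCH, of the complex that brings dynein to kinetochores, fell by 1.29 with ZC3H7A and 1.32 with ZC3H7B. SGO2, a protector of centromeric cohesin, fell by 1.83 with ZC3H7A and rose by 0.61 in DD, and CDCA8, or borealin, of the passenger complex, rose by 0.61 and 0.66. PKMYT1, a kinase that inhibits CDK1, rose by 0.99 and 0.87 with ZC3H7A and ZC3H7B. With the A+T trend removed, PKMYT1 was at 0.38 with each protein, and SMC4 and PDS5B were at -1.29 and -0.76 with ZC3H7A. On that scale SPC24 was at 0.78 and 0.81, CDCA8 at 0.56 and 0.62 and ZWILCH at -0.81 and -0.93 with ZC3H7A and ZC3H7B.

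MYBL2, the activator of mitotic genes, rose by 0.91 with ZC3H7A and 1.24 with ZC3H7B. It lies on chromosome 20 as well, where the 40 tested genes nearest to it had medians of 0.57 and 0.46 with no trend removed. FZR1, the activator of the anaphase-promoting complex in late mitosis, rose by 0.94 with ZC3H7B, beside a neighbour median of 0.71, and the difference of ZC3H7A from ZC3H7B was -0.46, beside -0.43. The neighbours of SPC24, on chromosome 19 like FZR1, had medians of 0.68 with ZC3H7A and 0.55 with ZC3H7B. In DD, 38 of the 100 rose and 8 fell, where 14.7% of all tested genes rose and 14.8% fell, and CKAP2, a spindle protein, rose with the lowest adjusted p of its group (log2 fold change 0.83, limma adjusted p = 7.25e-06). The cohesin subunits SMC3 and STAG1 rose by 0.61 and 0.55 in DD and the checkpoint protein ZW10 by 0.58. STMN1, or stathmin, which destabilises microtubules, fell by 0.34 in DD and differed by -0.63 between ZC3H7A and ZC3H7B, beside neighbour medians of -0.47 and -0.59.

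A list of 31 G1/S genes, which act before mitosis in DNA replication, was counted for comparison. With ZC3H7A 17 rose and 6 fell, with ZC3H7B 25 rose and 2 fell, and in DD 19 rose and 1 fell. Over all tested genes 34.7% rose and 41.2% fell with ZC3H7A, 32% and 37.6% with ZC3H7B, and 14.7% and 14.8% in DD. The median log2 fold changes of the G1/S genes were 0.26, 0.46 and 0.43. The medians of the 40 mitotic genes were 0.12, 0.11 and 0.23 in the same order, and those of all tested genes -0.07, -0.06 and 0.01. The lists were not matched for A+T share, and the difference between them was not tested.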

How the data were processed

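RNA-seq was measured in 15 libraries. The signal values in the deposited table are gene counts that the authors divided by size factors; the submitters' processing notes name STAR 2.7.10b, HTSeq, DESeq2 and hg19. Every value was within 0.01 reads of a whole multiple of what 1 read is worth in its library (100% of values), so whole reads were recovered. Of 55773 rows, 4 repeated date-like names were left out.

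Each experiment was fitted with limma 3.58.1 (R 4.3.3) on log2(value + 1), over genes that reached 10 in 3 or more libraries, with Benjamini-Hochberg adjustment over all of them at 0.05. Fold changes are on that scale, which understates low genes. The 3 overexpression groups shared 1 estimate of spread. On the recovered reads edgeR 4.0.16 called 6423 rises and 6923 falls with ZC3H7A, 6363 and 6046 with ZC3H7B, 3743 and 3959 between them, and 2619 and 2859 in DD. DESeq2 1.42.0, TMM scaling, library totals, other pseudocounts and filters, and fits without each library were alternatives. Scripts were tested on simulated data.

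Transcript length and base content came from GENCODE 29, by symbol (34273 rows), older symbol (1154) or none (20342), and promoters from RefSeq. As a further alternative, each library's linear trend with A+T share was removed, over the 86.1% of tested genes with a value (84.5% in the depletion experiment), and in a fit chosen after seeing the data the trend with length as well. Neighbours were the 20 nearest tested genes on each side. The members and lists were chosen with earlier results of these data known. Genes given with every library were, in each role group and comparison, the called gene with the lowest adjusted p, and up to 6 called in opposite directions in an overexpression and in DD. CDK1 was added after its values were seen. Of the wider list, up to 2 called genes per subgroup and comparison with the lowest adjusted p were open to naming.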

Additional observations from a re-analysis of the deposited data

How the results depend on the processing

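Of the calls made among the 40 genes, 30 of 36 with ZC3H7A, 27 of 32 with ZC3H7B, 15 of 20 between the proteins and 9 of 21 in DD held under every setting run. In all, 4 calls changed sign when the A+T trend was removed and when the A+T and length trends were, the latter a fit chosen after seeing the data: CDC25B with ZC3H7A (-0.0439 and -0.0478), BUB3 with ZC3H7A (0.25 and 0.24), TTK with ZC3H7B (0.0593 and 0.0547) and KIF11 with ZC3H7B (0.0477 and 0.0556). Leaving out 1 library gave 3 to 7 genes higher with ZC3H7A than with ZC3H7B, where 19.8% to 27.7% of all tested genes were higher. In DD, leaving out 1 library gave 11 to 32 genes called, 9 to 28 rises and 1 to 4 falls. Over all tested genes 8.58% to 19.7% then rose and 10.6% to 17.9% fell. DESeq2 gave 12 rises, where 11% of all tested genes rose. The main fits used no pairing by replicate number. Correlations of same-numbered deviations were -0.06 to 0.30, the highest between replicate 3 of ZC3H7A and replicate 3 of ZC3H7B, so a tie between those 2 libraries remains possible. With a replicate block 13 genes were called in DD, 11 of them rises, where 11.7% of all tested genes rose and 12.8% fell. The cause of these changes was not tested. Counts with ZC3H7A and with ZC3H7B stayed within 1.5 times under all settings run. The depletion libraries held fewer reads, and the wide Parental spread limits what DD could show.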
